A study of Mus musculus with 12 samples.

Results

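The mitosis genes described here are 40 genes that encode the machinery of cell division: cyclins and their kinase, other mitotic kinases, checkpoint and kinetochore proteins, spindle motors, cytokinesis proteins and chromosome proteins. They were chosen by name, as the rows whose gene symbol equalled a listed member, and all 40 were found among the 55401 genes of the count files. The data are poly(A) RNA sequencing of sorted spleen CD4 T cells from C57BL/6 mice infected with Leishmania donovani, a protozoan parasite of macrophages, and harvested at day 21. TLCP stands for cells sorted as LAG-3+ and CXCR5+ with PD-1lo/int staining (6 libraries) and Tfh for the CXCR5+ PD-1hi T follicular helper cells, described as mainly of germinal centers (6 libraries). Both populations came from infected spleens of 6 mice, and no library of uninfected mice is part of the comparison. The libraries are bulk RNA of sorted cells, so fewer dividing cells and less RNA per dividing cell cannot be told apart.

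Transcripts of mitosis genes are scarce in resting T cells and build up in S phase and G2, under B-Myb with the MuvB complex, FOXM1 and NF-Y. Cyclin B with CDK1 drives entry into mitosis, the Aurora and Polo kinases build the spindle, the checkpoint holds anaphase until chromosomes are attached, and the anaphase-promoting complex then marks cyclin B and securin for destruction. Ki-67 protein and its transcript are used as a marker of cycling cells, while cyclin B1 and Polo-like kinase 1 peak later, close to mitosis itself.

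Assigned reads numbered 6939770 to 12688306 per library, and after a filter on low counts 12015 genes were tested. Every one of the 40 members was tested, with 1056 to 90048 reads over the 12 libraries, and a library count of 0 would allow a level of up to 0.239 to 0.478 CPM (3 counts, counting error only). Levels are TMM-scaled read counts per 1e6 reads (CPM) with SD over 6 libraries unless TPM is named, fold changes are TLCP minus Tfh on the log2 scale with their SE, and adjusted p-values are those of edgeR's quasi-likelihood test over all genes tested (threshold 0.05). T cell transcripts were high in both populations (Cd3e averaged 503 CPM in TLCP and 520 in Tfh), and Lag3 (189 against 40.5 CPM) and Pdcd1 (36.6 against 318 CPM) ran in the sorted direction, with Cxcr5 at 277 and 849 CPM. Libraries are numbered 1 to 6 in each population, and equal numbers are taken to mark the same mouse. That the mice are separate animals is given by the series description alone, so p-values measure the spread between these libraries.

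The 6 promoter stretches below are shown because their genes are, among members with a single RefSeq promoter window, the 3 lower and the 3 higher genes with the smallest adjusted p. Each is the 150 bases before the RefSeq start of the gene on GRCm38.p6, read 5′ to 3′ on the strand of the gene, and capitals mark CCAAT (the NF-Y box) and TTTGAA (the core of the cell cycle genes homology region) on either strand, so ATTGG and TTCAAA are capitals too.
Ccnb1: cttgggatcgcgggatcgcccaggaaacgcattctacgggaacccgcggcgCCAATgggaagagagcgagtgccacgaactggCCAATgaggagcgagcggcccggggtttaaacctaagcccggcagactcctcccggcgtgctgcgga
Plk1: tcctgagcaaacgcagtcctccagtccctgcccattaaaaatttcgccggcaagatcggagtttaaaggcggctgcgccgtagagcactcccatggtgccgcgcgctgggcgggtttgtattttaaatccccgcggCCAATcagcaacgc
Nusap1: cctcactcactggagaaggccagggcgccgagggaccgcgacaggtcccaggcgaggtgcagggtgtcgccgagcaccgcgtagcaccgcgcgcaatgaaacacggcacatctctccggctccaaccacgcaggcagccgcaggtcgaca
Mki67: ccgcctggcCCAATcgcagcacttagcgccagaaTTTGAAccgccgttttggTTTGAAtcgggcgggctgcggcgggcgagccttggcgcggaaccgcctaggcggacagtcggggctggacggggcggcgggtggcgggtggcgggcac
Racgap1: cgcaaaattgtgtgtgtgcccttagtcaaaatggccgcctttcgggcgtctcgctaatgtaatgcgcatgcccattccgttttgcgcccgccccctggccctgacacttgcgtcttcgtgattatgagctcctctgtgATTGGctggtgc
Top2a: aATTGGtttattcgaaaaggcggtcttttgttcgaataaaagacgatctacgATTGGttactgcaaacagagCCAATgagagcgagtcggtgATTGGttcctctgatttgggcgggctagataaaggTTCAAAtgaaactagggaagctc

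The Ccnb1 stretch lies at chr13:100786487-100786636 on the minus strand, Plk1 at chr7:122159285-122159434 (plus), Nusap1 at chr2:119618148-119618297 (plus), Mki67 at chr7:135716380-135716529 (minus), Racgap1 at chr15:99651657-99651806 (minus) and Top2a at chr11:99024190-99024339 (minus). Within these 150 bases Ccnb1 held 2 CCAAT matches, Top2a 4, Plk1, Mki67 and Racgap1 1 each, and Nusap1 none, while TTTGAA was found 2 times in Mki67 and 1 time in Top2a. RefSeq windows (250 bases before to 50 after the start, 300 in all) were matched for 31 of the 40 members, 28 of them with exactly 1 window. Of those 28, CCAAT was present in 21 (75.0%), against 38.2% of 22862 genes with 1 window, and TTTGAA also in 21 (75.0%), against 18.5%. Both motifs together were in 18 members (64.3%) and in 7.21% of all genes, or 5.36% of the 7122 genes that were also tested here. A match is not shown to be a bound site. Within the 150 bases, CCAAT was in stretches of both higher and lower genes, though not in Nusap1. TTTGAA was only in those of Mki67 and Top2a, both higher. Only exact matches were searched, and the 150 bases are part of the window, so absence does not show that a gene lacks the element. A difference between the directions was not tested.

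Most mitosis genes did not differ between the populations by more than the spread of the libraries. Of the 40 members 4 were higher in TLCP (10%, against 16.8% of all genes tested): Mki67, Racgap1, Prc1 and Top2a. Another 6 were lower (15.0%, against 16.4% of all genes): Ccnb1, Plk1, Nusap1, Kif20a, Bub1b and Tpx2. The other 30 did not pass, so that 25.0% were called in either direction, below the 33.2% of all genes. The fitted fold changes were small, from 1.01-fold to 1.44-fold, with 16 members above 0 and 24 below. Their median was -0.054, beside -0.004 over all genes tested. In no member did the 6 TLCP libraries lie wholly above or wholly below the 6 Tfh libraries, whereas 8.30% of all genes tested had TLCP wholly above and 8.86% had it wholly below.

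**Figure D1:**
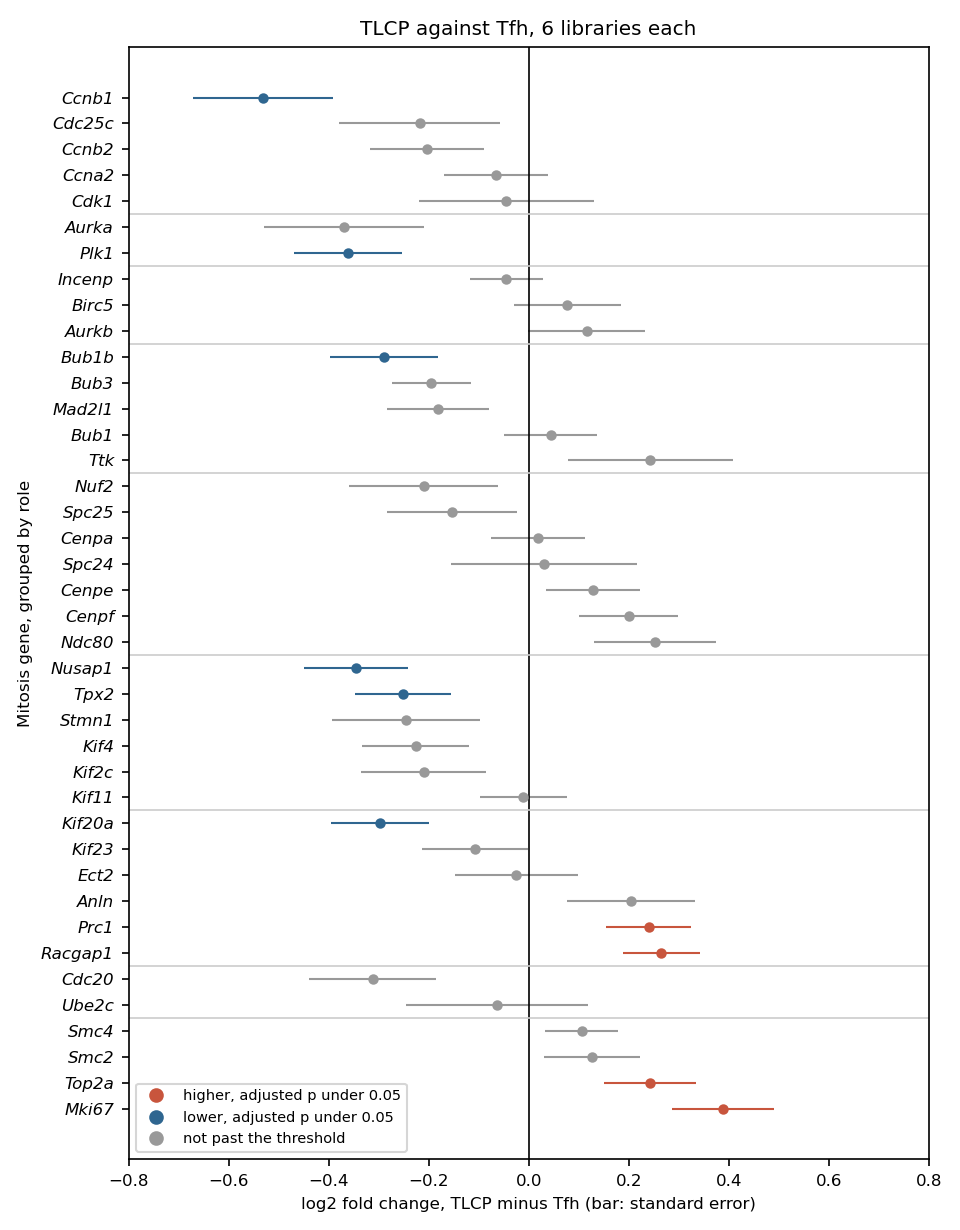
Log2 fold change (x axis, TLCP minus Tfh, bars are the standard error) of each of the 40 mitosis genes (y axis, grouped by role with grey lines between roles), from 6 libraries per population. The 4 higher genes (red) are in the cytokinesis and chromosome groups, and Ccnb1 has the lowest value at -0.53.

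The cyclins, CDK1 and CDC25C form the switch into mitosis. Ccnb1, which encodes cyclin B1, had the largest change of all members. Its level in TLCP libraries 1 to 6 was 13.3, 18.0, 15.0, 9.50, 18.3 and 14.3 CPM, and in Tfh libraries 1 to 6 it was 22.0, 22.2, 21.4, 21.2, 22.7 and 18.2 CPM. TLCP was lower in all 6 mice, and the groups touched only where Tfh 6 (18.17 CPM) fell just under TLCP 5 (18.26 CPM). The means were 14.7 ± 3.24 and 21.3 ± 1.62 CPM (SD, n = 6 each), a log2 change of -0.53 with SE 0.140 (edgeR adjusted p = 0.00595), or 1.44-fold lower. Cdk1, which encodes the kinase that cyclin B1 activates, did not follow it. Cdk1 measured 28.5, 33.8, 23.7, 31.9, 51.0 and 46.8 CPM in TLCP 1 to 6 and 34.9, 28.9, 34.9, 42.8, 46.4 and 35.4 CPM in Tfh 1 to 6. The groups overlapped widely, with TLCP 5 and 6 the highest of the TLCP libraries, and the change was -0.04 (SE 0.175, edgeR adjusted p = 0.873). Ccnb2 (another B-type cyclin), Ccna2 (cyclin A2 of S phase and G2) and Cdc25c (the phosphatase that activates CDK1) had changes of -0.20, -0.07 and -0.22 and did not pass (edgeR adjusted p = 0.184, 0.664 and 0.324). Of this group of 5, 1 was lower, none was higher, and the median was -0.204.

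**Figure D2:**
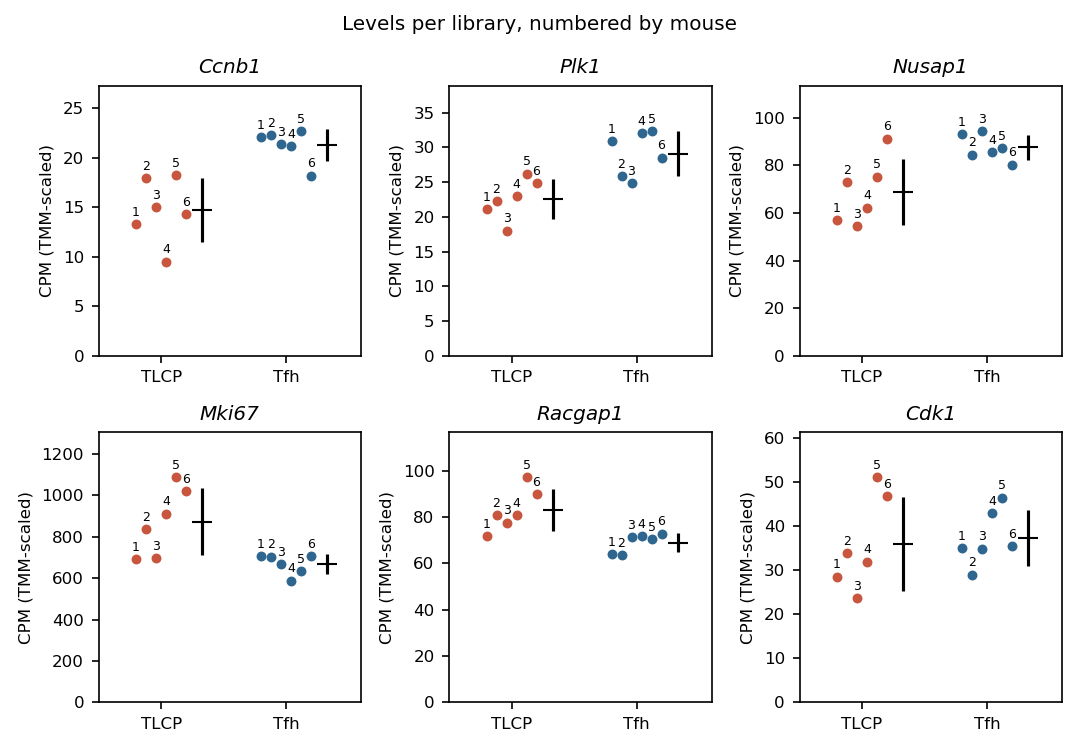
Level per library in TMM-scaled CPM (y axis from 0) of 6 mitosis genes in TLCP and Tfh (x axis), with points numbered by mouse and the mean with SD in black beside each group. Ccnb1, Plk1 and Nusap1 lie lower in TLCP, Mki67 and Racgap1 higher, and Cdk1 overlaps widely, with TLCP 5 and 6 above the other TLCP libraries in the Mki67, Racgap1 and Cdk1 panels.

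Plk1, which encodes Polo-like kinase 1, an organizer of spindle poles and of mitotic entry and exit, was lower in TLCP. Its levels were 21.1, 22.3, 18.0, 23.0, 26.2 and 24.8 CPM in TLCP 1 to 6 and 30.9, 25.8, 24.8, 32.0, 32.4 and 28.5 CPM in Tfh 1 to 6. TLCP was below Tfh in all 6 mice, although TLCP 5 and 6 reached the range of Tfh 2 and 3. The means of 22.6 ± 2.88 and 29.1 ± 3.21 CPM gave a log2 change of -0.36 (SE 0.108, edgeR adjusted p = 0.0136). Aurka, which encodes the spindle pole kinase Aurora A, had a change of the same size that did not pass (-0.37, SE 0.160, edgeR adjusted p = 0.0837), but passed with the mouse number as a block (-0.41, edgeR adjusted p = 0.026). In TLCP 1 to 4 Aurka lay between 11.6 and 15.6 CPM, but TLCP 5 and 6 had 24.3 and 21.3 CPM, inside or above the Tfh range of 19.7 to 23.8 CPM.

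The chromosomal passenger complex corrects faulty attachments at centromeres and guides cytokinesis. None of its 3 members passed. Aurkb, which encodes its kinase Aurora B, measured 24.4, 29.6, 22.0, 25.5, 30.8 and 25.4 CPM in TLCP 1 to 6 and 28.0, 19.7, 20.7, 29.3, 22.8 and 25.2 CPM in Tfh 1 to 6. The groups interleaved, and the change was 0.12 (SE 0.117, edgeR adjusted p = 0.482). Birc5 (survivin, 0.08) and Incenp (the scaffold, -0.04) were nearer 0.

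Bub1b, which encodes the checkpoint protein BubR1, was the checkpoint gene that passed. It measured 45.0, 46.0, 42.9, 42.2, 62.8 and 48.8 CPM in TLCP 1 to 6 and 59.3, 56.0, 59.1, 44.3, 70.0 and 62.8 CPM in Tfh 1 to 6. TLCP was lower in all 6 mice, but library 5 was the highest of both groups and Tfh 4 lay within the lower TLCP libraries. The change was -0.29 (SE 0.108, edgeR adjusted p = 0.0456). Bub3, a partner of BubR1, was also lower in all 6 mice and lay just outside the threshold (-0.19, SE 0.0784, edgeR adjusted p = 0.0631). It passed with the mouse number as a block (edgeR adjusted p = 0.0298). Mad2l1 (the checkpoint effector MAD2) had -0.18, Bub1 (a kinetochore checkpoint kinase) 0.04 and Ttk (the kinase MPS1, which starts the checkpoint signal) 0.24, with edgeR adjusted p from 0.183 to 0.753.

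None of the 7 centromere and kinetochore members passed, and their median was 0.032. Ndc80, which encodes the microtubule-binding subunit HEC1, had the smallest p of this group. Its levels were 36.7, 41.2, 32.7, 33.6, 47.3 and 43.6 CPM in TLCP 1 to 6 and 42.3, 31.7, 36.6, 24.7, 28.9 and 32.5 CPM in Tfh 1 to 6. TLCP was lower in mice 1 and 3 and higher in the other 4 mice, and the change was 0.25 (SE 0.122, edgeR adjusted p = 0.119). Its 3 partners in the same complex had other values, Nuf2 at -0.21, Spc25 at -0.15 and Spc24 at 0.03. The large kinetochore proteins Cenpf and Cenpe had 0.20 and 0.13, and Cenpa, the histone H3 variant of centromeres, had 0.02.

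Of the 6 spindle motors and microtubule proteins, 2 were lower in TLCP and none was higher (median -0.236). Nusap1, which encodes a protein that bundles spindle microtubules, measured 57.0, 73.0, 54.4, 62.2, 75.2 and 91.2 CPM in TLCP 1 to 6 and 93.1, 84.5, 94.4, 85.7, 87.3 and 80.3 CPM in Tfh 1 to 6. TLCP 1 to 5 all lay below every Tfh library, and TLCP 6 lay within the Tfh range. The means of 68.8 ± 13.8 and 87.5 ± 5.37 CPM gave -0.35 (SE 0.104, edgeR adjusted p = 0.0149). Tpx2, which encodes the activator of Aurora A on spindle microtubules, passed at the edge of the threshold (-0.25, SE 0.096, edgeR adjusted p = 0.04996), with TLCP from 57.0 to 93.0 CPM and Tfh from 83.3 to 95.1 CPM. The remaining 4 were the motors Kif4 (-0.23), Kif2c (-0.21) and Kif11 (-0.01) and the microtubule destabilizer Stmn1 (-0.25), and none passed.

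Cytokinesis was the group with changes in both directions. Racgap1, which encodes the GTPase-activating subunit of centralspindlin, measured 71.6, 80.7, 77.5, 80.6, 97.0 and 89.7 CPM in TLCP 1 to 6 and 63.9, 63.6, 71.3, 71.7, 70.4 and 72.8 CPM in Tfh 1 to 6. TLCP was higher in all 6 mice, and only TLCP 1 lay within the Tfh range. The means of 82.8 ± 9.08 and 68.9 ± 4.08 CPM gave 0.27 (SE 0.0774, edgeR adjusted p = 0.0120). Kif23, which encodes the motor that pairs with Racgap1 in centralspindlin, had -0.11 and did not pass. Prc1, which bundles antiparallel microtubules of the spindle midzone, was higher (0.24, SE 0.0853, edgeR adjusted p = 0.0358), at 72.1 to 96.9 CPM against 60.8 to 75.7 CPM. Kif20a, a midzone motor that brings Polo-like kinase 1 to the central spindle, was lower in all 6 mice (-0.30, SE 0.0986, edgeR adjusted p = 0.0249), at 28.4 to 42.8 CPM against 39.1 to 47.8 CPM. Ect2 (the activator of RhoA) had -0.02 and Anln (anillin of the contractile ring) 0.20, and neither passed.

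The anaphase-promoting complex is activated by Cdc20 and receives ubiquitin from the conjugating enzyme Ube2c. Cdc20 measured 12.9, 20.8, 15.9, 18.9, 17.0 and 22.9 CPM in TLCP 1 to 6 and 23.6, 19.5, 23.5, 23.1, 23.8 and 21.1 CPM in Tfh 1 to 6. TLCP was lower in 4 of 6 mice, and the change of -0.31 did not pass (SE 0.127, edgeR adjusted p = 0.0657). Ube2c had -0.06 (SE 0.182).

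The chromosome group held the most abundant members and leaned the other way, with 2 of 4 higher, none lower and a median of 0.185. Mki67, which encodes Ki-67, a coat protein of mitotic chromosomes, measured 693, 837, 697, 913, 1087 and 1020 CPM in TLCP 1 to 6 and 708, 704, 669, 588, 634 and 706 CPM in Tfh 1 to 6. TLCP was higher in 5 of 6 mice, TLCP 1 and 3 lay within the Tfh range, and TLCP 4 to 6 were the highest of all 12. The means of 874 ± 164 and 668 ± 48.6 CPM gave 0.39 (SE 0.102, edgeR adjusted p = 0.00744), or 1.31-fold higher. Top2a, which encodes the topoisomerase that untangles sister chromatids, measured 500, 547, 460, 539, 644 and 696 CPM in TLCP 1 to 6 and 544, 476, 497, 428, 492 and 424 CPM in Tfh 1 to 6. TLCP was higher in 4 of 6 mice, and the change of 0.24 was at the edge of the threshold (SE 0.092, edgeR adjusted p = 0.04996) and did not pass with the mouse number as a block (0.23, edgeR adjusted p = 0.101). The condensin ATPases Smc4 (0.11) and Smc2 (0.13) did not pass.

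**Figure D3:**
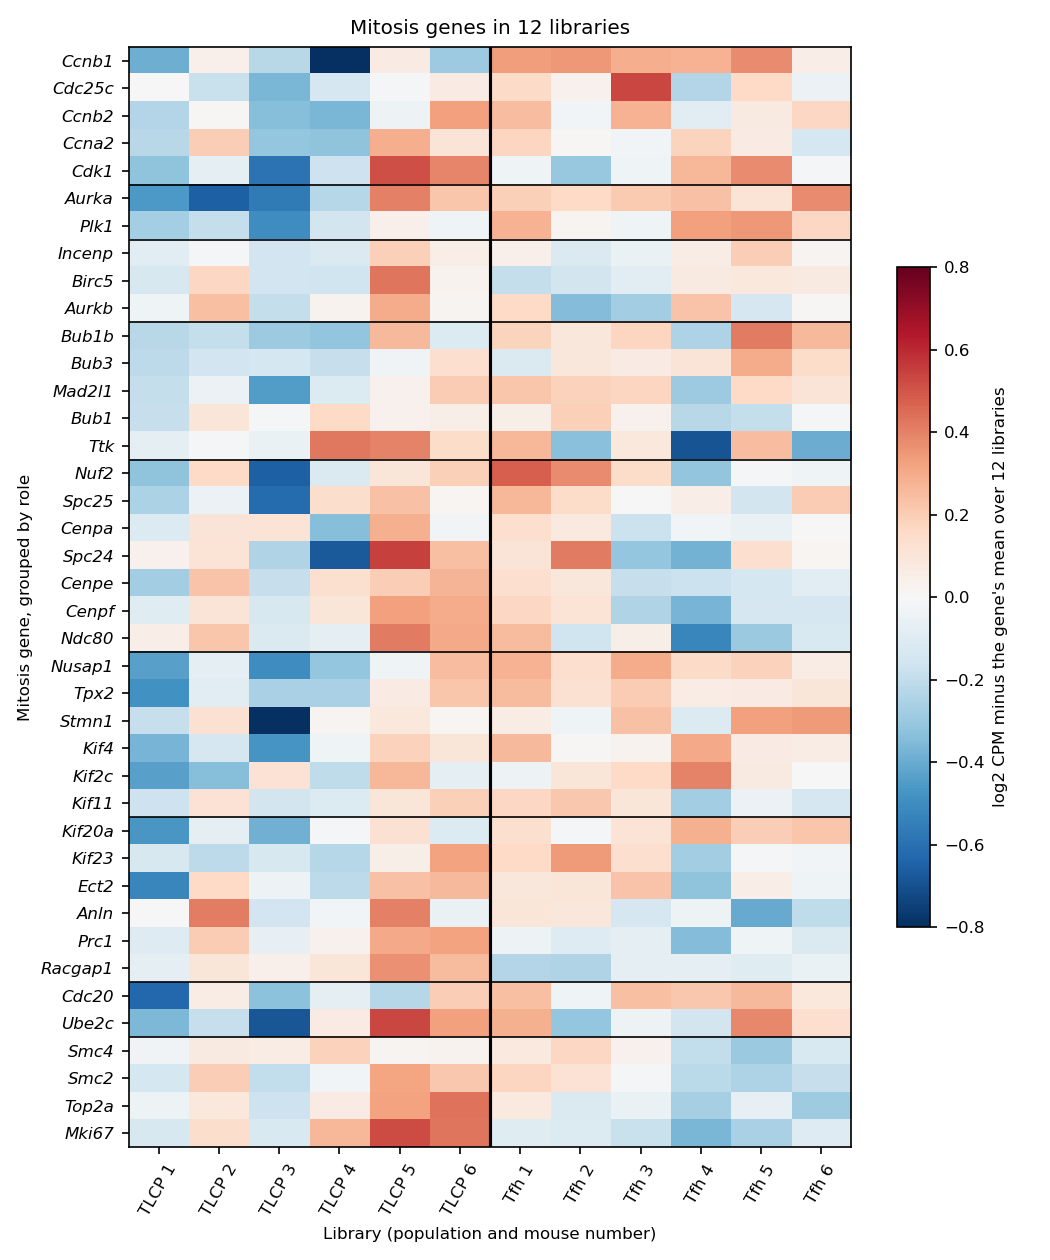
Log2 CPM of each mitosis gene minus its mean over the 12 libraries (color, clipped at 0.8 above and below), with genes in rows in the same role order as the fold change plot and libraries in columns. The columns TLCP 1 and TLCP 3 are mostly blue and TLCP 5 and TLCP 6 mostly red, while the Tfh columns vary less.

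Per transcript length, on the authors' TPM scale, Smc4 was the most abundant member with 365 ± 37.6 TPM in TLCP and 282 ± 69.1 in Tfh, followed by Mki67 (229 and 144) and Top2a (165 and 115). Smc2 had 76.9 and 58.6 TPM and Ccna2 68.9 and 59.4. The lowest were Cdc25c with 4.51 and 4.30 TPM and Anln with 6.14 and 4.45. Ccnb1 had 9.07 and 10.9 TPM and Plk1 27.1 and 28.4, well below the chromosome proteins.

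The opposite directions of Ccnb1 and Mki67 could be compared inside each library, where library scaling has no part. The ratio of Ccnb1 to Mki67 reads, a pair picked after its values were known, was 0.0104 to 0.0215 in TLCP (mean 0.0172) and 0.0258 to 0.0360 in Tfh (mean 0.0320). The lowest Tfh library lay above the highest TLCP library. The pair joins the members with the lowest and the highest log2 change, which favors such a separation, so it is no separate support. The sum of mitosis reads over the sum of S phase reads (55 replication genes) did not separate the groups. It was 1.29, 1.40, 1.31, 1.49, 1.36 and 1.37 in TLCP 1 to 6 and 1.46, 1.52, 1.38, 1.23, 1.21 and 1.28 in Tfh 1 to 6, with means of 1.37 ± 0.0711 and 1.35 ± 0.128. TLCP was the lower library in mice 1 to 3 and the higher in mice 4 to 6. The 40 members made up 0.342% to 0.510% of assigned reads in TLCP and 0.310% to 0.426% in Tfh. Unlike the ratios, this share depends on the library total. Smc4, Mki67 and Top2a lead both this share and the sum of mitosis reads in the ratio.

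The position of TLCP relative to Tfh changed from mouse to mouse. The median log2 ratio of the 40 members, TLCP over Tfh of the same number, was -0.319, 0.012, -0.252, 0.032, 0.167 and 0.152 in mice 1 to 6. In mouse 1, 38 of the 40 members were lower in TLCP, and in mouse 3, 31 were, whereas 27 members were higher in mouse 5 and 29 in mouse 6. With mice 1 to 3 alone, 0 members were higher and 13 lower (14.1% and 13.5% of all genes went each way), among them Ccnb1, Aurka, Plk1, Nusap1 and Tpx2. With mice 4 to 6 alone, 9 members were higher and 0 lower (11.8% and 10.9% of all genes), among them Mki67, Top2a, Racgap1 and Prc1. Of the 40 members 20 had a median ratio below 0 in mice 1 to 3 and above 0 in mice 4 to 6, and 2 the reverse. Ccnb1 was lower by a like amount in both sets (-0.50 with edgeR adjusted p = 0.0162, and -0.57 with 0.0832), while Mki67 had 0.10 (adjusted p = 0.342) and 0.63 (adjusted p = 5.59e-05). No label names a batch, the sets were found in these data, and the difference between them was not tested.

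**Figure D4:**
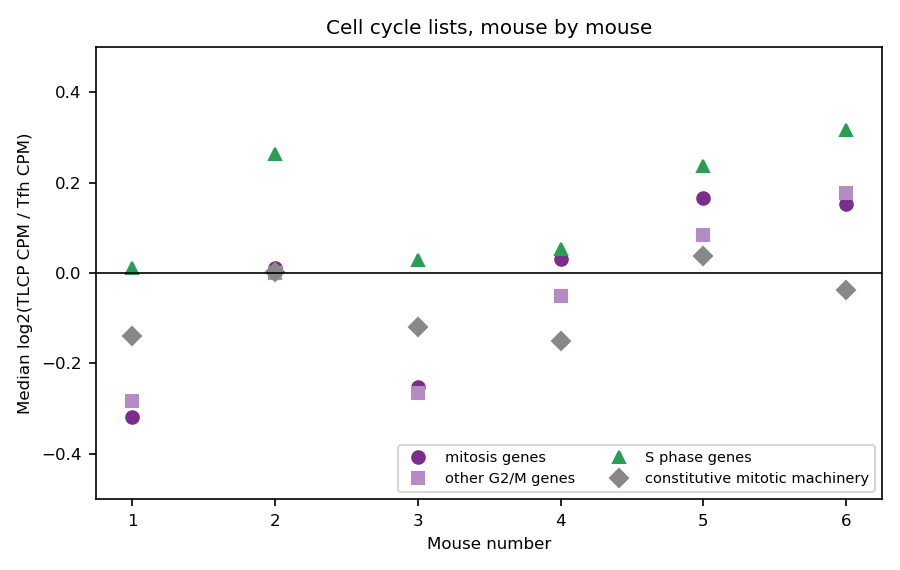
Median log2 ratio of TLCP to Tfh CPM (y axis) in libraries of the same mouse number (x axis) for the mitosis genes and 3 other lists, with 1 symbol per list. The mitosis genes run from -0.319 in mouse 1 to 0.167 in mouse 5, and the S phase genes lie at or above 0.011 in every mouse.

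The sets also differed in the most abundant transcript, the ribosomal RNA-like CT010467.1. It held 17.7%, 22.4% and 24.1% of assigned reads in TLCP 1 to 3 and 16.6%, 25.5% and 24.1% in Tfh 1 to 3. In mice 4 to 6 the shares were 13%, 13.7% and 12.9% in TLCP and 28.3%, 30.9% and 22.8% in Tfh. The populations were thus alike in the first set and apart in the second. Erythroid markers moved with the sets as well. Their summed levels were 126, 55.7 and 69.8 CPM in TLCP 1 to 3 and 44.7, 7.29 and 25.3 CPM in Tfh 1 to 3, and 50.0, 99.6 and 83.6 CPM in TLCP 4 to 6 and 94.3, 110 and 104 CPM in Tfh 4 to 6. Of the 7 tested, 3 were higher in mice 1 to 3 alone (median 1.81) and 0 in mice 4 to 6 alone (median -0.52). The part of RNA composition or of erythroid RNA in the shift between mice was not tested. With all mice and without the ribosomal RNA genes, 4 members were higher and 5 lower, since Tpx2 no longer passed (-0.25, edgeR adjusted p = 0.0542). Of all 12099 genes tested in that fit, 2051 were higher and 1925 lower.

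The number of calls in each direction depended on scaling. No member called under TMM was called the other way with library totals alone or on TPM. With library totals alone, which moved the median of all genes from -0.004 to 0.168, 9 members were higher and 0 lower, against 26.7% and 7.43% of all genes (3207 and 893, compared with 2014 and 1969 under TMM). The members' median was then 0.126, again just below that of all genes. On the deposited TPM values, tested with limma on log2(TPM + 1), 4 members were higher and 0 lower, against 24.0% and 3.52% of all genes (3176 and 465), and the medians were 0.197 for the members and 0.255 for all genes. Relative to the median of all genes, the 4 higher members lay above it and the 6 lower members below it under each of the 3 scalings. These members were picked by their TMM calls, and rescaling shifts genes largely together, so their side of the median is no separate support. With the mouse number as a block, 3 members were higher and 8 lower (19.1% and 18.0% of all genes). The block added Bub3 and Aurka to the lower genes and took Top2a from the higher, with the values given above. In the authors' deposited table, 4 members were higher and 4 lower at the same threshold, with Mki67 at 0.40 (adjusted p = 0.000777) and Ccnb1 at -0.52 (adjusted p = 0.00293). There 4411 genes were called in either direction, a total that was not split by direction. No share of all genes stands beside the members' counts in that table, so they do not say whether members were called more or less often.

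The calls differed in how far they rested on single libraries. Mki67, Racgap1, Ccnb1, Plk1 and Nusap1 passed in each of the 12 refits that left out 1 library, with the largest edgeR adjusted p between 0.0148 for Ccnb1 and 0.0402 for Racgap1. The other 5 calls were lost at least once. Kif20a was lost without TLCP 1 or TLCP 3 (up to 0.0641), Prc1 in 7 of the 12 refits, Top2a in 9, and Bub1b and Tpx2 in 10 each.

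Transcripts of B lineage cells were present in both sorted populations and higher in TLCP, beside the higher Mki67, Racgap1, Prc1 and Top2a. Of 10 B cell markers 8 were higher, with a summed level of 5068 to 24270 CPM in TLCP and 1211 to 2253 CPM in Tfh, and none was at 0 in any library. Of 7 plasma cell markers tested 6 were higher (648 to 3348 against 88.1 to 473 CPM), with Sdc1 and Mzb1 at 0 in some Tfh libraries. All 4 tested basophil and mast cell markers were higher too (23.3 to 91.4 against 0 to 6.69 CPM), each at 0 in some Tfh library. The 7 erythroid and 5 myeloid markers tested gave no call, with erythroid sums of 50.0 to 126 CPM in TLCP and 7.29 to 110 CPM in Tfh, and myeloid sums of 31.8 to 121 and 11.6 to 107 CPM. With the mouse number as a block, 1 erythroid and 1 myeloid marker were higher. Germinal center B cell markers were mixed, with Rgs13 and Gcsam higher at under 10 CPM, and Mef2b and Bcl6, the latter also the defining factor of Tfh cells, lower. The B cell sums of TLCP 1 to 6 were 9629, 5068, 8456, 17650, 24270 and 9686 CPM, and their summed mitosis levels were 3507, 4077, 3503, 4008, 4620 and 4554 CPM. TLCP 5 was highest in both sums, while TLCP 2 had the lowest B cell sum and a mitosis sum above that of TLCP 4. Without TLCP 4 and 5, the libraries with the most immunoglobulin reads, 0 members were higher and 7 lower. Of all 12299 genes tested in that fit, 1513 were higher and 1616 lower, fewer than the 2014 and 1969 with all libraries. Mki67 then had 0.27 (edgeR adjusted p = 0.0535) while Ccnb1 had -0.50 (adjusted p = 0.00646). TLCP 4 and 5 are also 2 of the 3 TLCP libraries of mice 4 to 6, so their B lineage RNA and their mouse set cannot be told apart in this fit. The part of B lineage RNA in the higher members was not tested.

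Other genes of the cell cycle were read from lists beside the members. For each list the share of all genes called stands at 16.8% higher and 16.4% lower. Of 70 other G2/M genes 1 was higher and 7 lower (median -0.052, beside -0.004 for all genes). The 3 with the smallest p had all TLCP libraries below all Tfh libraries, as had 8.86% of all genes tested. Picking by the smallest p favors such a separation, so it says little about the list. These were Zwint, a kinetochore protein (62.6 ± 7.83 against 90.6 ± 7.74 CPM, -0.53, edgeR adjusted p = 8.36e-05), Cdc25b, a phosphatase that activates CDK1 (-0.45, adjusted p = 0.00023), and Cenpn, a centromere protein (-0.73, adjusted p = 0.00221). The calls moved with scaling as those of all genes did, to 9 higher and 3 lower with library totals alone (26.7% and 7.43% of all genes) and to 7 higher and 0 lower on TPM (24.0% and 3.52%). The median of the list was 0.124 and 0.204 under these scalings, beside 0.168 and 0.255 for all genes. The summed reads of the list were 0.852 to 0.913 of the S phase reads in TLCP and 0.898 to 1.03 in Tfh. Of 25 subunits of cohesin, its loaders and the anaphase-promoting complex, which cells carry throughout the cycle, 3 were higher and 6 lower (median -0.020), led by Stag2 (-0.35), Smc3 (0.26) and Anapc10 (-0.52).

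Of 55 S phase genes 16 were higher in TLCP and 3 lower, with a median of 0.197, against 16.8% and 16.4% of all genes and a median of -0.004. With library totals alone 31 were higher and 1 lower (26.7% and 7.43% of all genes), with a median of 0.374 beside 0.168. In mice 1 to 3 alone 7 were higher and 4 lower (14.1% and 13.5% of all genes), and in mice 4 to 6 alone 10 were higher and 2 lower (11.8% and 10.9%). Pold1, the catalytic subunit of DNA polymerase delta, was higher (29.5 ± 3.60 against 17.1 ± 2.88 CPM, 0.79, edgeR adjusted p = 4.34e-05), and Tk1, thymidine kinase, was higher as well (0.60, adjusted p = 0.00103). Msh6, a mismatch repair gene, had the smallest p and was lower (-0.75, edgeR adjusted p = 1.99e-08). The per-mouse median of the S phase list was above 0 in all 6 mice (0.011 to 0.317), which that of the mitosis genes was not.

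Of 20 regulators of mitotic genes 6 were higher and 3 lower (16.8% and 16.4% of all genes), with a median of -0.094. E2f2, an activating E2F factor, and E2f7, a repressor of E2F targets, were higher (0.76 and 0.77), and Rbbp4, a histone-binding subunit of MuvB, was lower (-0.37). Foxm1, which was looked up for its role and is not among the 3 smallest p, was higher (0.43, edgeR adjusted p = 0.00324). Of 18 G1 cyclins and CDK inhibitors tested (21 listed) 4 were higher and 5 lower, with a median of 0.017. Ccnd1 (cyclin D1) was higher at a low level (3.99 against 0.563 CPM, 2.83), as were Cdk6 (0.42) and Cdkn1a, which encodes the CDK inhibitor p21 (1.01).

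The log2 change of the members was set beside transcript length. Over the 40 members the Spearman correlation between length of the principal transcript and log2 change was 0.326, against 0.0833 over 10387 protein-coding genes tested, given as a description since genes share libraries. The 2 members under 1000 nucleotides had a median of 0.007, the 9 of 1000 to 1999 had -0.204, the 9 of 2000 to 2999 had -0.209, the 7 of 3000 to 3999 had -0.045, the 9 of 4000 to 5999 had -0.011, and the 4 of 6000 and over had 0.165. For all genes the same bins had -0.12, -0.066, -0.004, -0.023, 0.003 and 0.046. Neither series went up at every step. Over the members the correlation was 0.178 in mice 1 to 3 and 0.396 in mice 4 to 6. All protein-coding genes also differed more by length in mice 4 to 6. Their medians under 1000 nucleotides and at 6000 and over were -0.045 and 0.021 in mice 1 to 3. In mice 4 to 6 they were -0.189 and 0.08. The part of length in the calls was not tested.

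**Figure D5:**
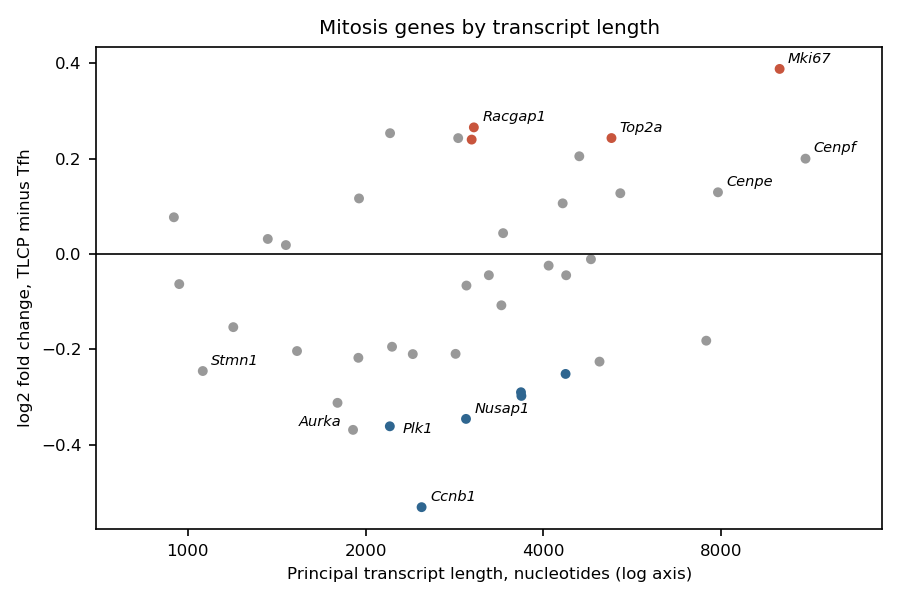
Log2 fold change (y axis, TLCP minus Tfh) of the 40 mitosis genes against the length of the principal GENCODE transcript in nucleotides (x axis, log scale), with higher genes in red, lower genes in blue and the rest in grey. Mki67 is among the longest and highest, and Ccnb1 is the lowest point.

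In the genome (GRCm38) Mki67 spans 135689784 to 135716361 of chromosome 7 on the minus strand, Ccnb1 100778650 to 100786570 of chromosome 13 (minus), Racgap1 99620496 to 99651656 of chromosome 15 (minus), Plk1 122159439 to 122169873 of chromosome 7 (plus) and Nusap1 119618298 to 119651244 of chromosome 2 (plus). All 40 members are annotated as protein-coding, with spans in the files identical to GENCODE M21. The annotation also names near copies of 3 members (Ccnb1-ps, Ccnb2-ps and Kif4-ps), and reads that map to several places were not counted, so the levels of Ccnb1, Ccnb2 and Kif4 are less certain.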

How the data were processed

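Poly(A) RNA of sorted spleen CD4 T cells was sequenced in 12 libraries, 6 per population. The submitters' processing notes name STAR 2.7.1a, bcl2fastq 2.20, DESeq2 1.30.1 and the GRCm38 build. The deposited count files hold raw read counts per gene in STAR's layout, and the column for reads on the gene's own strand was taken (opposite strand 2.83% to 4.19%). Classes that name no gene (44.9% to 56.4% of reads) stayed out of library sizes and tests, among them multimapping reads (16.1% to 24.3%). The authors' deposited comparison table gives log2 fold changes, p-values and a normalized signal per library, from which whole reads were recovered for 100% of values (tolerance 0.01) and equalled the counts. The authors also deposited TPM values per gene.

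Counts were fitted in R 4.3.3 with edgeR 4.0.16 (filterByExpr, TMM, robust quasi-likelihood test, 2-sided, Benjamini-Hochberg over all 12015 genes tested, threshold 0.05). SE was derived from the fold change and the F statistic of the test (log2 fold change over the root of F). TPM was tested with limma 3.58.1 on log2(TPM + 1) for genes with a mean of at least 1 TPM. The method was tested on simulated data whose changes were larger than that of any member. That test therefore does not cover changes of the members' size.

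The mitosis genes, their roles, the other lists and most alternatives were chosen with earlier results of these data known. All 40 members are named or counted. Values per library are given for the member of each role with the smallest p and for Mki67, Top2a and Cdk1, and from each other cell cycle list the 3 genes with the smallest p are named, plus Foxm1, picked after its value was seen. Transcript lengths are of the APPRIS principal transcript in GENCODE M21, and promoter windows are from RefSeq on GRCm38.p6. 

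Same-numbered libraries deviated together from their group means (correlations of 0.127 to 0.318, all above 0.1), and were treated as pairs, which is an inference and not a label. Library 3 correlated slightly better with another number (0.143 against 0.137). The fit without the block was the main one. Libraries of a group differed by more than counting noise (chi-square over degrees of freedom at least 6.6). Alternatives were other scalings (RLE, library totals alone), DESeq2 1.42.0, other filters (none, or 10 CPM in 6 libraries), unstranded counts, the replicate block, leaving out gene groups or single libraries, and subsets of mice.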

Additional observations from a re-analysis of the deposited data

Results flagged for a closer look

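Over the 40 members and 2 summary measures, 84 groups of 6 libraries were screened for a library far from the other 5, and 4 were found. Chance gives about 1 in 20 groups, so about as many as were found. Ccnb1 in Tfh 6 was low, at 18.17 CPM beside 21.2 to 22.7 CPM in Tfh 1 to 5. Without that library the Ccnb1 groups would not overlap. Bub1b in TLCP 5 was high, at 62.83 CPM beside 42.2 to 48.8 CPM in the other TLCP libraries. Mad2l1 and Prc1 were both low in Tfh 4, at 50.63 and 60.82 CPM, and Tfh 4 is the library with the fewest assigned reads (6939770). Prc1 lost its call without Tfh 4, which is 1 of the 7 refits among 12 that lost it.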

How the results depend on the processing

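Against 4 mitosis genes higher in TLCP and 6 mitosis genes lower in TLCP, the counts were 9 and 0 with library totals alone, 4 and 0 by limma on TPM, 2 and 6 with no filter, 0 and 13 in mice 1 to 3 only, 9 and 0 in mice 4 to 6 only, and 0 and 7 when leaving out the 2 TLCP libraries with most immunoglobulin reads (chosen after seeing the data). With no filter, 2149 of 26259 genes tested were higher and 1925 lower, smaller shares of all genes than in the main fit. Leaving out single libraries gave 2 to 5 members higher and 3 to 9 lower. Of all 12146 to 12246 genes tested in those refits, 1770 to 2052 were higher and 1719 to 1974 lower. The higher count fell to 2 without TLCP 2, 5 or 6 or Tfh 2, 3, 4 or 6, and the lower count fell to 3 without TLCP 1 or 3. All genes higher in TLCP (2014) and lower (1969) became 3207 and 893 with library totals alone and 3176 and 465 on TPM. They were 1513 and 1616 without the 2 TLCP libraries with most immunoglobulin reads. The median log2 fold change of mitosis genes (-0.054) was 0.197 on TPM. The ratio of summed mitosis counts to summed S phase counts, as a log2 difference, was 0.028 with all mice, -0.128 in mice 1 to 3 and 0.184 in mice 4 to 6. Top2a turned to -0.01 in mice 1 to 3 (adjusted p = 0.938) and Tpx2 to 0.018 on TPM (adjusted p = 0.943). The causes of these shifts were not tested. The subsets also hold fewer libraries than the main fit.

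With the replicate block the counts were 3 and 8, and the block changed the calls of Bub3, Aurka and Top2a and of no other member. The other alternatives (RLE, DESeq2, a stricter filter, unstranded counts, leaving out gene groups, and recovered reads, the last chosen after seeing the data) kept 3 to 4 members higher and 4 to 6 lower, with Cdc25c not tested under the stricter filter. Of all 8169 to 12243 genes tested in these fits, 1569 to 2222 were higher and 1545 to 2006 lower. A change of sign in a member called under neither setting was not counted as a reversal. At 6 libraries a group, SE of 0.0731 to 0.186 on the log2 scale limit what could be called.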
